A study of Homo sapiens with 6 samples.

Results

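The zinc finger cluster of chromosome 19 bands q13.11 to q13.12 was examined as 36 genes of 56794 named in the table: 35 zinc finger genes and LINC00665, a long intergenic non-coding RNA that lies among them. They were chosen by position and put forward with the group means of mutant and parental cells already known, and all transcripts of a gene were summed. Their values in that comparison are therefore descriptions, and the authors' p-values for them carry no independent weight. RNA was sequenced from 3 libraries of HEK293 cells labelled CASP8AP2 mutant and 3 of the parental HEK293 cells, both expressing luciferase, with the mutant cells carrying a CRISPR deletion in CASP8AP2. HEK293 is a human embryonic kidney line, and CASP8AP2 encodes a protein needed to process the 3' ends of histone messages. The labels do not say whether the mutant cells were grown from a single clone or whether replicates were separate cultures, so the authors' p-values may measure technical spread. The deletion cannot be told apart from any other difference between the cell populations.

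Most genes of the cluster encode KRAB zinc finger proteins. In these, an array of C2H2 fingers reads DNA, often a transposable element, and the KRAB domain recruits TRIM28, which brings the histone methyltransferase SETDB1 and heterochromatin to the site. The genes arose by tandem duplication and sit in clusters along chromosome 19, many of them back to back with a start region in common. LINC00665 has been described as raised in several tumours and as the source of a micropeptide.

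Levels were the authors' group means of a length-scaled abundance with their added 1 taken off, so no value of a single library and no error between replicates can be given. Read depth was estimated from the commonest products of value and transcript length among transcripts with reads in 1 library. It came to 57.5, 15.0 and 13.3 M reads on transcripts in the mutant libraries, against 15.3, 11.6 and 9.19 M in the parental ones. CASP8AP2 RNA itself stood at 15.7 in mutant and 15.9 in parental cells. Where in the gene the deletion lies is not stated by the labels, so this level does not check them. All 8 marker genes listed for HEK293 reached an abundance of 1 in at least 1 group. VIM, an intermediate filament gene, had 530 in mutant and 425 in parental cells, NEFL, a neurofilament gene, 434 against 35.7, and NEFM, its partner, 0.0690 against 8.63. Markers of blood cells and of hepatocytes, 8 genes in all, stayed under 1 in both groups, and of 5 fibroblast markers 2 reached 1, the highest being COL1A1 at 5.82 in mutant and 2.17 in parental cells. What part cell state had in the cluster's values was not tested.

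The cluster as a whole was lower in the mutant cells. Summed over the 36 genes, abundance was 199 in mutant and 335 in parental cells. Of the 36, 32 reached an abundance of 1 in mutant or parental cells, and 29 of these were lower and 3 higher in mutant cells. Of all 14856 genes at that abundance, 7514 were lower and 7342 higher. The log2 ratio of mutant over parental, taken after 1 was added to both, was -1 or less for 11 of the 32, against 1.61% of the 14856 genes at that abundance, and 1 or more for 0 of them, against 1.51% of the 14856. The median log2 ratio was -0.79 over the 32 genes (quartiles -1.21 and -0.31) and -0.69 over all 36, beside -0.01 over the 14856. A gene that reached the level of 1 through the parental group alone had to be lower, so these counts describe the genes and support nothing further. Adding 1 understates the difference of genes at low levels. Less RNA per cell and fewer cells with RNA cannot be told apart in such bulk samples.

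**Figure D1:**
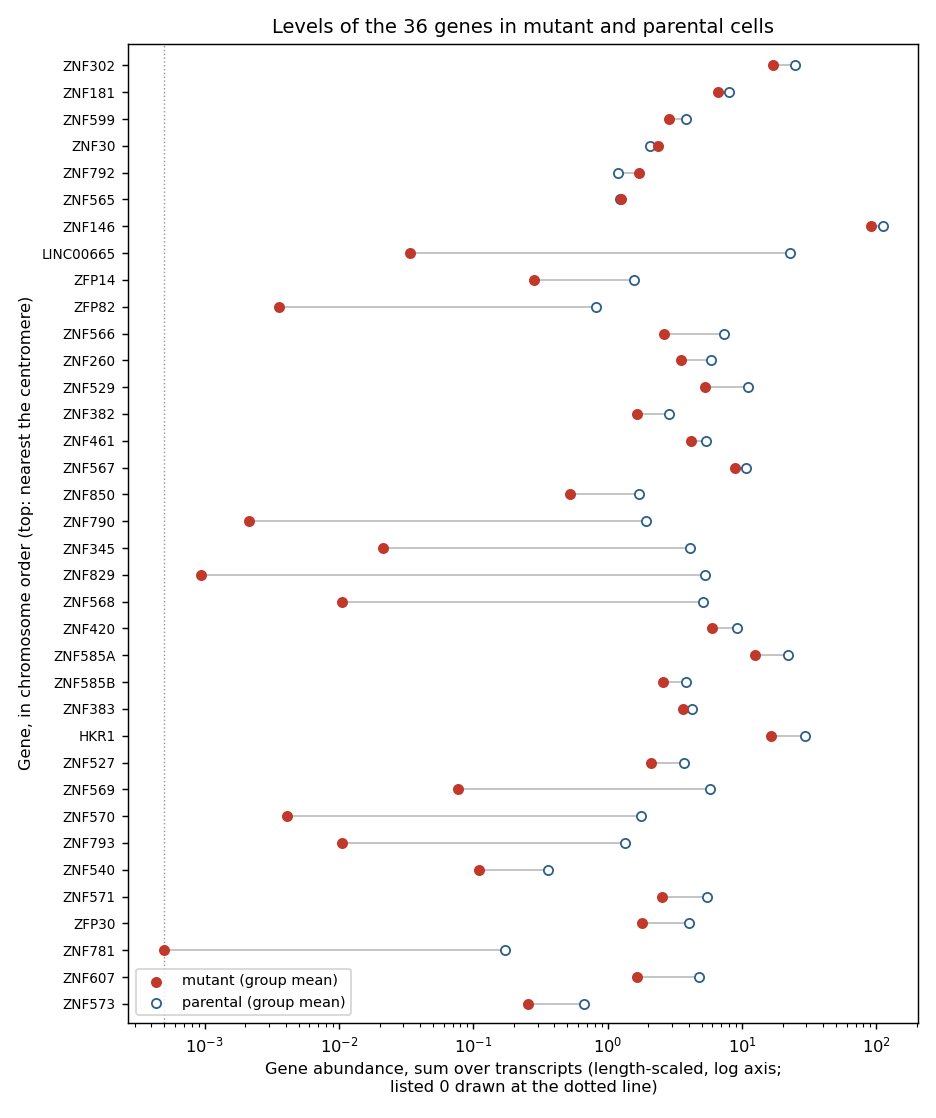
Abundance of each of the 36 genes (horizontal log axis, length-scaled, summed over transcripts) in chromosome order, with filled points for the mutant and open points for the parental group mean. For 9 genes, from LINC00665 to ZNF793, the mutant level is at most 1.32% of the parental level, and expressed genes lie between them.

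The differences were of unequal size. For 9 genes the mutant level was under 5% of a parental level of at least 0.5. These were LINC00665, ZFP82, ZNF790, ZNF345, ZNF829, ZNF568, ZNF569, ZNF570 and ZNF793. Together they had an abundance of 0.163 in mutant and 48.8 in parental cells. Across all genes with a parental level of at least 0.5, 0.602% were as low in mutant cells (97 of 16124). The reverse, a parental level under 5% of a mutant level of at least 0.5, held for 0 of the 23 members with such a mutant level. It held for 0.0805% of 16141 genes in all, so small a share that the 0 says little. Just inside the limit were ZNF569 at 1.32% and ZNF793 at 0.782% of the parental level, and just outside it ZFP14 at 17.9% and ZNF850 at 30.6%. No gene of the cluster with a parental level of at least 0.5 lay between 1.32% and 17.9%. The other 27 genes summed to 199 in mutant and 286 in parental cells.

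LINC00665 had the lowest log2 ratio of the cluster. The gene, on the minus strand of chromosome 19 (36313067 to 36331718, build hg38), stood at 0.0334 in mutant and 22.6 in parental cells, a log2 ratio of -4.51. Its mutant level was 0.148% of the parental one, and by this measure ZNF829 (0.0178%) and ZNF790 (0.111%) were lower. LINC00665-208, the most abundant of the 8 transcripts of LINC00665, had 0.0128 in mutant and 10.6 in parental cells. LINC00665-204 had 0.000745 against 5.14, and LINC00665-206 0.0111 against 2.61. LINC00665-205 had 0.00829 in mutant and 2.38 in parental cells. All 8 annotated forms were lower in mutant cells. In the authors' deposited table LINC00665-206 and LINC00665-207 had adjusted p-values of 0.0435 and 0.0141. They were the 2 transcripts under 0.05 among 266 of the cluster, both lower, against 0.00854% of 140552 transcripts in all. None of the 266 was higher at that level, against 0.0135%, and 0.0221% of all were under it in either direction. The value of the gene in mutant cells equals 3.39 to 14.7 reads over the 3 libraries, depending on which library held them, and in parental cells 1473 to 2454 reads.

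ZFP14 and ZFP82, KRAB zinc finger genes, are the next members after LINC00665 on the same strand. ZFP82 stood at 0.00355 in mutant and 0.815 in parental cells, and its mutant value equals 1 read in the shallowest mutant library. ZFP14 lies between ZFP82 and LINC00665 and was low without being near 0, at 0.283 in mutant and 1.58 in parental cells. Its longer transcript, ZFP14-201, had 0.144 against 1.24, and the shorter ZFP14-202 0.139 against 0.340.

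A run of 4 neighbouring members, ZNF790, ZNF345, ZNF829 and ZNF568, was near 0 in mutant cells (chromosome 19, 36817428 to 36998700, 181 kb). ZNF568 encodes a KRAB repressor whose mouse counterpart silences a placental promoter of Igf2. The gene stood at 0.0106 in mutant and 5.10 in parental cells, and its mutant value equals 1 read in the shallowest mutant library. Of its transcripts, ZNF568-202, ZNF568-216 and ZNF568-203 were listed at 0 in mutant cells and stood at 1.53, 1.17 and 0.518 in parental cells. ZNF568-201 had 5.55e-08 in mutant and 0.472 in parental cells. ZNF829 had nearly all its RNA in 1 form, ZNF829-203, at 0.000943 in mutant and 5.13 in parental cells, a mutant value that equals 1 read in the deepest library. For the whole of ZNF829 the parental value equals 880 to 1466 reads. ZNF829 encodes a further KRAB zinc finger protein.

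ZNF345 stood at 0.0213 in mutant and 4.12 in parental cells, spread over 11 transcripts. ZNF345-202 had 1.10e-06 in mutant and 0.868 in parental cells, and ZNF345-206 0.00266 against 0.641. ZNF345-214 and ZNF345-215 were at 0 in mutant cells (within 1e-09), against 0.794 and 0.654 in parental cells. ZNF790 stood at 0.00214 in mutant and 1.92 in parental cells, and its mutant value equals 1 read in the deepest library. Its main form, ZNF790-201, was at 0 in mutant cells within 1e-09 and at 1.08 in parental cells. ZNF790-206 had 0.00210 in mutant and 0.375 in parental cells, ZNF790-207 4.16e-05 against 0.233, and ZNF790-204 was listed at 0 against 0.229. All 4 genes of the run were at a level that equals at most 5.83 reads in the mutant libraries. These held 85.8 M estimated reads in sum, 57.5 M of them in the deepest library, against 36.1 M in the parental ones.

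A run of 3 further members, ZNF569, ZNF570 and ZNF793, showed the same pattern over 138 kb (37411155 to 37548762). ZNF569, described as a repressor of MAP kinase reporter activity, stood at 0.0763 in mutant and 5.80 in parental cells. Its most abundant form, ZNF569-201, had 0.000347 in mutant and 3.18 in parental cells, while ZNF569-202 had 0.0423 against 2.11. ZNF569-205 had 0.00521 in mutant and 0.252 in parental cells, and ZNF569-207 0.000914 against 0.122. ZNF570 stood at 0.00408 in mutant and 1.76 in parental cells, most of it in ZNF570-201 (0.00408 against 1.42), and ZNF570-204 was listed at 0 against 0.249. ZNF793 had 0.0105 in mutant and 1.35 in parental cells. ZNF793-201 had 1.02e-05 in mutant and 0.799 in parental cells, and ZNF793-209 0.00244 against 0.280. In mutant cells ZNF569 had the most RNA of this run, equal to 10.6 to 45.8 reads, against 721 to 1201 reads in parental cells.

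Over the 9 genes together, the mutant level equals 20.7 to 89.6 reads and the parental level 4699.8 to 7832 reads. Of their 65 transcripts in the comparison 63 were lower in mutant cells, and 38 were at 0 there within 1e-09. The 9 genes were picked for a low sum in mutant cells, so these counts follow largely from the choice and support nothing further. The read numbers are estimates from the inferred size of a read in each library, and their range comes from not knowing which library held the reads.

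The members between and around these runs were expressed in both groups, apart from ZNF781. ZNF146, which consists of zinc fingers without a KRAB domain and is overexpressed in some carcinomas, was the most abundant gene of the cluster, at 91.0 in mutant and 111 in parental cells. ZNF565, which overlaps it on the other strand, had 1.25 against 1.23. The 5 members nearest the centromere, in band q13.11, had both lower and higher values in mutant cells. ZNF302 stood at 16.9 in mutant and 24.6 in parental cells, ZNF181 at 6.56 against 8.00, ZNF599 at 2.88 against 3.84, ZNF30 at 2.38 against 2.07 and ZNF792 at 1.70 against 1.20. Their median log2 ratio was -0.25, beside -0.85 over the 27 of the other 31 members that reached an abundance of 1.

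From ZNF566 to ZNF850, between LINC00665 with its neighbours and the run of 4, every gene was lower in mutant cells and none was near 0. ZNF566 stood at 2.61 in mutant and 7.31 in parental cells, with ZNF566-204 at 0.971 against 2.85 and ZNF566-211 at 0.807 against 3.02. ZNF566-209 had 0.101 in mutant and 0.412 in parental cells, and ZNF566-201 0.0612 against 0.409. ZNF260, whose rodent counterpart acts with GATA4 in heart cells, had 3.52 in mutant and 5.89 in parental cells. ZNF529 had 5.30 against 11.0, and ZNF382, a KRAB repressor reported to be silenced by promoter methylation in tumours, 1.65 against 2.83. ZNF461, first described in rat ovary as a repressor induced by gonadotropin, had 4.19 against 5.34, ZNF567 8.80 against 10.6 and ZNF850 0.521 against 1.70. Among these the level in mutant cells ran from 30.6% of the parental one in ZNF850 to 82.6% in ZNF567.

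From ZNF420 to ZNF527, between the runs of 4 and of 3, all members were expressed as well. ZNF420, also called Apak, a repressor of apoptosis genes that p53 activates, stood at 5.92 in mutant and 9.20 in parental cells. ZNF585A had 12.5 in mutant and 22.0 in parental cells and its near-identical neighbour ZNF585B 2.58 against 3.85, and reads of this pair may be split between them. ZNF383 had 3.65 against 4.26, HKR1, of the Kruppel family, 16.5 against 29.5 and ZNF527 2.09 against 3.67. These 6 genes held between 56.1% and 85.8% of the parental level.

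Beyond ZNF793 the members were lower without being near 0, apart from ZNF781. ZNF571 stood at 2.54 in mutant and 5.49 in parental cells, and ZFP30, whose mouse counterpart was linked to neutrophil recruitment in the lung, at 1.81 against 4.06. ZNF607 had 1.64 in mutant and 4.78 in parental cells, with ZNF607-202 at 1.06 against 3.44, ZNF607-201 at 0.568 against 1.25, ZNF607-203 at 0.00640 against 0.0588 and ZNF607-205 at 0.0115 against 0.0324. ZNF540 (0.111 in mutant, 0.362 in parental cells) and ZNF573 (0.254 against 0.661) were low in both groups. ZNF781 was listed at 0 in mutant cells and stood at 0.172 in parental cells, a parental level that equals 14.0 to 23.3 reads.

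Of the 266 transcripts of the cluster in the comparison, 203 were lower and 63 higher in mutant cells. The same split over all transcripts was not counted. Going by the p of the authors' deposited table, 41 of the 266 transcripts of the cluster (15.4%) were lower at an unadjusted value under 0.05, against 2.48% of all transcripts, and 3 (1.13%) were higher, against 3.3% of all. In both directions together the share over all transcripts was 5.79%. The 3 were ZNF461-213, at 0.583 in mutant and 0.108 in parental cells, ZNF585A-206, at 0.220 in mutant cells, and ZNF527-206, at 0.173 in mutant cells, the last 2 being at 0 in parental cells within 1e-09. All 3 belong to genes whose sum was lower in mutant cells. The authors' deposited table gave them p-values of 0.00963, 0.000570 and 0.000826, with adjusted values of 0.564, 0.262 and 0.288.

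Of members that start back to back, either both or neither were under 5% of the parental level. In GENCODE release 29, 7 pairs of members lie head to head, with their closest annotated transcript starts 15 to 81 bases apart. Any annotated start of a gene could be used, whether or not it was the main one. In 3 pairs both genes were under 5% of the parental level, in 4 pairs neither was, and in 0 pairs was only 1 of them. ZNF790 and ZNF345, 48 bases apart, stood at 0.111% and 0.517% of the parental level. ZNF829 and ZNF568, 38 bases apart, stood at 0.0178% and 0.208%, and ZNF569 and ZNF570, 81 bases apart, at 1.32% and 0.232%. Of the other 4 pairs, ZNF565 and ZNF146 stood at 101% and 81.9%, and ZNF529 and ZNF382 at 48.1% and 58.3%. ZNF585B and ZNF383 stood at 67.1% and 85.8%, and ZNF571 and ZNF540 at 46.3% and 30.6%. The span of ZNF571 lies wholly within that of ZNF540, and the span of ZNF146 within that of ZNF565. Each of these pairs therefore rests on a start inside the longer gene. The parental level of ZNF540, 0.362, is below the 0.5 required for the near-silent call, so ZNF540 could not be called. Its top transcript, ZNF540-201, had 0.00922 in mutant and 0.191 in parental cells. Pairs of a member and a gene outside the list did not all lie on the same side of 5%. ZNF793 and ZNF793-AS1, 15 bases apart, stood at 0.782% and 0%, but ZNF850 stood at 30.6% of the parental level while AC020928.1, 328 bases away, was listed at 0 in mutant cells. Neither the labels nor the processing notes state counting by strand. The spans of members on opposite strands overlap, ZNF345 and ZNF829 over 24906 bases, ZNF540 and ZNF571 over 40009 bases and ZNF565 and ZNF146 over 24173 bases. Reads from exons that such neighbours may have in common could not be told apart without strand, while ZNF565 and ZNF146 have separate levels in the table.

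**Figure D2:**
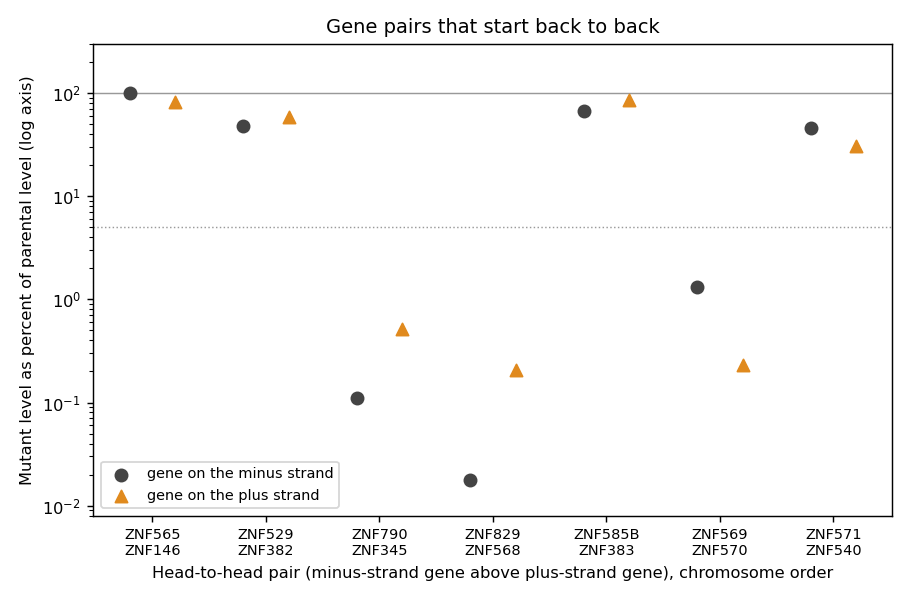
Mutant level as a percentage of the parental level (log axis) for both genes of the 7 head-to-head pairs, circles for the minus-strand and triangles for the plus-strand gene, with lines at 100% and 5%. Both genes of ZNF790 and ZNF345, of ZNF829 and ZNF568, and of ZNF569 and ZNF570 lie under 5%, and both genes of the other 4 pairs lie above 30%.

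The start regions of the 3 near-silent pairs and of LINC00665 are shown with that of an expressed pair, ZNF529 and ZNF382, since in these pairs the window of a gene also holds bases of its partner's window. They are RefSeq promoter windows on build GRCh38.p14, from 250 bases before to 50 bases after the annotated start, read 5' to 3' on the strand of the gene named, with CpG dinucleotides in capitals. The windows of the genes named and of their partners have 183 bases in common for ZNF345 and ZNF790, 140 for ZNF568 and ZNF829, 173 for ZNF570 and ZNF569 and 155 for ZNF382 and ZNF529. They lie at chr19:36331669-36331968 on the minus strand for LINC00665, and on the plus strand at chr19:36850626-36850925 for ZNF345, chr19:36916082-36916381 for ZNF568, chr19:37467522-37467821 for ZNF570 and chr19:36605063-36605362 for ZNF382.
LINC00665: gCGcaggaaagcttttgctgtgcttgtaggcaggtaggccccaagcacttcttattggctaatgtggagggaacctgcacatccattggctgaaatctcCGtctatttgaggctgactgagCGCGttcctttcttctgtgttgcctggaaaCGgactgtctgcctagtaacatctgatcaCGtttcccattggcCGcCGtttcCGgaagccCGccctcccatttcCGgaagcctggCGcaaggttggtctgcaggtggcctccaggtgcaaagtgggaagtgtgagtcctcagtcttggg
ZNF345: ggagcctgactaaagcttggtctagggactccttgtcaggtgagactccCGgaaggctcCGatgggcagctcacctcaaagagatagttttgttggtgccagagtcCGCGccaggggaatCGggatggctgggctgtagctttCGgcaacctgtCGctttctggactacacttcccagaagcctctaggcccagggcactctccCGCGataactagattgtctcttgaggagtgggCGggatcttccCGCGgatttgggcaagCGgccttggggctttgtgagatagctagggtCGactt
ZNF568: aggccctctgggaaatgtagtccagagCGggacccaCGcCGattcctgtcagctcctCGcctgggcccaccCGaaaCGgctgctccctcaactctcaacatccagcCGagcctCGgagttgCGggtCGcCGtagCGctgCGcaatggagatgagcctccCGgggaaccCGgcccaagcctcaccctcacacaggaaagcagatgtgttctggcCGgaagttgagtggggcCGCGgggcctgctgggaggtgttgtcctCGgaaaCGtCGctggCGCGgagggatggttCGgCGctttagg
ZNF570: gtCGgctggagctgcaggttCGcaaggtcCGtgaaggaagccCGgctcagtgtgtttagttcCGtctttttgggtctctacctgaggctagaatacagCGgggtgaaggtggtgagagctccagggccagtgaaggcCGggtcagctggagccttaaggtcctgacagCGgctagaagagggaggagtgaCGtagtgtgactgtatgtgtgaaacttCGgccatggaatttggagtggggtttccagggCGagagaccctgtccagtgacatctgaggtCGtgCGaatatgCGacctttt
ZNF382: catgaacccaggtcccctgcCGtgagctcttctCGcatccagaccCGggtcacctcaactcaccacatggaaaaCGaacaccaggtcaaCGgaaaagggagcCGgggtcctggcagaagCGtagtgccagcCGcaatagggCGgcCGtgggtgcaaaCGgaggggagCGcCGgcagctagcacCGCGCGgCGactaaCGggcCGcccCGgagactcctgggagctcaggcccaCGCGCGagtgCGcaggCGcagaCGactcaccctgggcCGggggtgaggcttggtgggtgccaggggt

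These windows held 12 CpG in LINC00665, 14 in ZNF345, 25 in ZNF568, 14 in ZNF570 and 27 in ZNF382. RefSeq windows were matched for 31 of the 36 members, all but HKR1, ZFP14, ZNF30, ZNF571 and ZNF781. The 9 near-silent members had a median of 17 CpG in 300 bases (12 to 37), the 22 other members 23.5 (12 to 32), the other zinc finger genes of chromosome 19 a median of 20 and all promoters 14. The ranges of the near-silent and the other members overlap over nearly their whole width, and ZFP82, at 37 CpG, had the most of all 31. The median ratio of observed to expected CpG was 0.745 in the near-silent and 0.809 in the other members, beside 0.580 in all 27305 promoters. The 7 letters CCGGAAG, a site form of ETS factors, stood on either strand in 4 of the 9 near-silent and 7 of the 22 other members, against 46.7% of the other zinc finger genes of chromosome 19 and 10.7% of all promoters. TATAAA, searched on both strands too, was in 0 of the 31 windows, against 11.95% of all promoters. Windows of partners had bases in common in 5 of the 6 pairs with both windows, all but ZNF585B and ZNF383, and are not independent there, and no test was run.

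**Figure D3:**
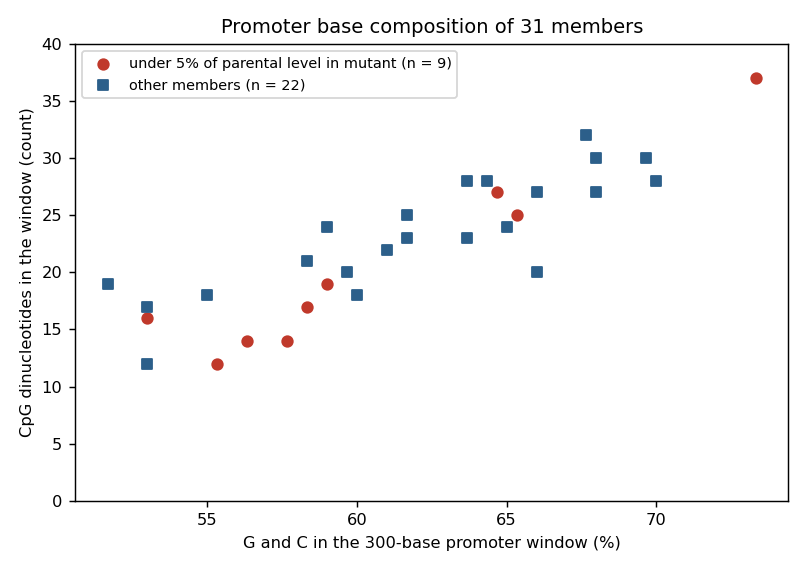
Number of CpG dinucleotides (vertical) against the share of G and C (horizontal, %) in the 300-base promoter window of 31 members, circles for the 9 genes under 5% of the parental level and squares for the 22 others. The groups overlap, with 12 to 37 CpG in the first and 12 to 32 in the second.

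Other genes of the interval were not uniformly lower, and this went with their place. Between ZNF302 and ZNF573 (chromosome 19, 34677639 to 37817300) the table held 114 other genes, and 50 reached an abundance of 1. The 33 protein-coding ones among these had a median log2 ratio of 0.10 (13 lower and 20 higher), and 0 of them were at -1 or less. All 33 lie in the gap without members between ZNF792 and ZNF565 (34964050 to 36182059), and 0 lie among the later members. The 5 of the 50 with the largest log2 difference were all non-coding RNAs from among the zinc finger genes. AC020928.1, a lincRNA next to the start of ZNF850, was listed at 0 in mutant cells and stood at 7.13 in parental cells, and AC020928.2, on the strand opposite to it and overlapping it, had 0.658 in mutant and 5.79 in parental cells. LINC01535, between ZNF383 and HKR1, had 0.0605 in mutant and 2.12 in parental cells. ZNF793-AS1, which starts 15 bases from ZNF793 on the other strand, was listed at 0 against 1.40. AC012617.1, a lincRNA just beyond the 3' end of LINC00665, had 3.16e-05 in mutant and 1.07 in parental cells. On the other side of LINC00665 the nearest gene that was no member and reached 1 was ZNF529-AS1, at 1.38 against 2.45. Of the 23 other genes from ZNF565 on, 10 reached an abundance of 1, none of them protein-coding. All 10 were lower in mutant cells, with a median log2 ratio of -1.002, beside -0.13 over all 23. Of the 10, only ZNF529-AS1, SELENOKP1 and AC016582.2 had a mutant level of 1 or more. The rest reached 1 through the parental group alone and had to be lower, so this count and median support nothing further.

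Zinc finger genes elsewhere on chromosome 19 leaned the same way. Of 208 other protein-coding genes there with a ZNF or ZFP symbol 152 reached an abundance of 1, with a median log2 ratio of -0.25, and 29 of them (19.1%) were at -1 or less, against 11 of 32 (34.4%) in the cluster. With a parental level of at least 0.5, 25 of 167 (15.0%) were under 5% of it in mutant cells, against 9 of 34 (26.5%) in the cluster. Of the 97 such genes in the whole table, 34 were members or other zinc finger genes of chromosome 19. The cluster's counts include LINC00665, which is not protein-coding and is among the 11 and the 9, and HKR1, which lacks such a symbol. The sets are therefore not quite alike, and the difference between the cluster and the other zinc finger genes was not tested.

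**Figure D4:**
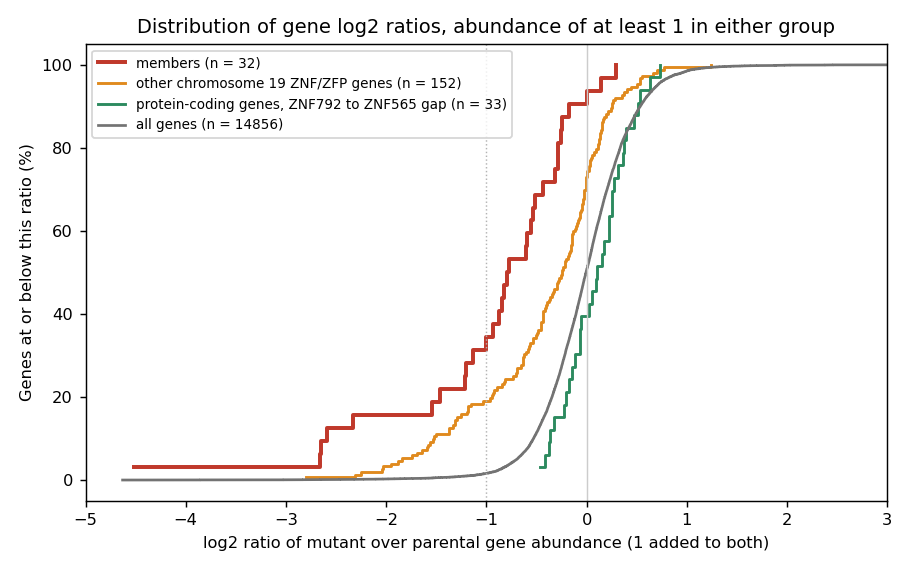
Cumulative share of genes (vertical, %) at or below a log2 ratio of mutant over parental abundance (horizontal, 1 added to both) for the 32 members, 152 other zinc finger genes of chromosome 19, 33 protein-coding genes of the gap between ZNF792 and ZNF565, and all 14856 genes, each gene reaching 1 in a group. The members lie furthest left, with a median of -0.79, and the protein-coding genes of the gap, which holds no members, have a median of 0.10.

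Base composition moved with the comparison. Messages of the members were poor in G and C, with a median of 39.4% in the most abundant transcript against 48.6% over all 14856 genes, and genes with so little G and C were lower in mutant cells, the running median log2 ratio at the members' median G and C share being -0.15. With this trend taken off, the median log2 ratio of the 32 members was -0.66, and 10 in place of 11 were at -1 or less. The share of all genes at -1 or less with the trend taken off was not counted, so the 10 has no background beside it. The part of base composition beyond this trend was not tested.

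A list of KRAB cofactors and other chromatin genes was expressed in both groups, apart from ZFP57 (0.00907 in mutant and 0 in parental cells). TRIM28, the corepressor bound by the KRAB domain, stood at 271 in mutant and 306 in parental cells, and SETDB1, which methylates histone H3 at lysine 9, at 21.1 against 21.3. The maintenance factor of DNA methylation UHRF1 had 25.2 in mutant and 54.8 in parental cells, CTCF, an insulator protein, 15.9 against 23.6, MORC2, which works with the HUSH silencing complex, 12.1 against 17.9, and CBX3, a heterochromatin protein, 104 against 146. Of 29 genes of this list at an abundance of 1 or more, 24 were lower and 5 higher, with a median log2 ratio of -0.13. Over all 14856 genes at that abundance, 7514 were lower and 7342 higher. UHRF1 was the one gene of the list at -1 or less, against 1.61% of all genes. Of 361 transcripts of the list, the authors' deposited table had 9 lower and 3 higher with an unadjusted p below 0.05, against 2.48% and 3.3% over the whole table.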

How the data were processed

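RNA-seq libraries of HEK293 cells, 3 CASP8AP2 mutant and 3 parental, were grouped by their titles. The submitters' processing notes name bcl2fastq, STAR, Partek and build hg38, with no version or order. Per the labels' protocols, cDNA was made with random primers. The transcript annotation is not named.

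A table deposited by the authors held a score per transcript and group, a least-squares mean per the file headers, for 140552 of 203376 transcripts. The deposited ratio, fold change, p-value and adjusted p-value were also the authors'. Another deposited column, a signal headed total counts, had fractional values and was left out. With 1 taken off, both groups summed to 496162.2, so levels are relative to a common total.

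Transcripts were matched to GENCODE release 29 (99.1%), which gave length, G and C content and coordinates. Gene abundance was the sum over transcripts. A read's size in each library was taken as the commonest product of value and length among transcripts with reads in 1 library, and depth followed from it. This step and the counts of genes past 2-fold were run on simulated data without noise. Such data check the code and not the accuracy of the estimates. Calculations used pandas 2.3.3 in Python 3.11.15.

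The members and lists were chosen with earlier results of these data known. The limit of 5% of the parental level was set after values were seen. Named were all members, transcripts of LINC00665 and of members at a log2 ratio of -1 or less (at most 4 a gene), the 5 other genes of the interval with the largest change and those beside LINC00665, and from the KRAB list TRIM28, SETDB1 and the 4 largest changes. LINC00665-207 and the 3 transcripts higher at p under 0.05 were named after their values were seen. Protein features had been planned and were not analysed here. Alternatives were another added value, other filters, transcript level, centring, other thresholds and removal of the G and C trend in 40 bins.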

Additional observations from a re-analysis of the deposited data

How the results depend on the processing

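No paired analysis was possible because the table gives group means, and for the same reason leaving out single libraries, another normalization and another test tool were not run. The count of members at a log2 ratio of -1 or less was 11 (1.61% of all genes), and 15 with 0.1 added in place of 1 (3.34% of all genes). It was 5 of 16 at an abundance of at least 5 (1.33% of all), 7 of 27 by a single top transcript per gene (1.72% of all), and 5 at a log2 ratio of -2 or less (0.263% of all). The count at 1 or more was 0 with 0.1 added (3.49% of all genes), at an abundance of at least 5 (1.75%) and by top transcript (1.43%). It was also 0 at a log2 ratio of 2 or more, where the share of all genes was not counted. In sets of 16 to 32 members shares this small give few genes, so the 0 says little. The median log2 ratio of the members, -0.79, was -0.82 with 0.1 added, -0.69 without a filter, -0.67 at transcript level, -0.78 after centring on all genes and -0.66 with the G and C trend taken off. For LINC00665 the log2 ratio, -4.51, was -7.41 with 0.1 added, which compresses low levels less, and -3.52 for its most abundant transcript, which holds part of its RNA. For the other changed values the cause was not tested. Transcripts called by the authors' adjusted p under 0.05 numbered 2 of 266, against 0.0221% of all transcripts. The number was 1 of the 60 at an abundance of at least 1, and 0 of 266 under 0.01. For these last settings the share over all transcripts was not counted. With the limit on the mutant level at 10% and 20% of the parental level, both chosen after the data were seen, 9 and 10 members were under it in place of 9 at 5%, with 0.775% and 1.20% of all genes in place of 0.602%. Precision is limited by group means without spread, and by single reads for levels near 0.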
